A study of Rattus norvegicus with 8 samples.

Results

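The genes that copy DNA and that supply the nucleotides for copying it were compared between livers of rats treated with structured lipids that contain butyrate (STL) and livers of control rats. The 42 genes are the licensing factors, the MCM helicase, the factors that activate it, the primase and polymerases, the sliding clamp and its loader, the enzymes of Okazaki fragments, the enzymes of deoxynucleotide supply, and a pair of E2F transcription factors. Their spots were found by the gene name in the array files. All 42 genes were on the array, with 58 probes, among 35877 genes or names. The list of genes was chosen with earlier results of these data known. Of these 42 genes, 37 could be tested, among 21700 genes tested in all.

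All animals were male Wistar rats, and their age was not given in the sources used here. Control rats received maltodextrin at 3.0 g/kg body weight, and STL rats received the structured lipids by gavage each day at 1.65 g/kg, doses that carried the same energy. From 2 weeks into the treatment both groups went through the resistant hepatocyte model, which uses a carcinogen and then selects for initiated hepatocytes that keep growing, so the controls were livers under hepatocarcinogenesis and not normal livers. Livers were taken 8 weeks after the treatment began, and total RNA of liver tissue was labelled with Cy3 and hybridised to Agilent arrays with 1 colour. The labels count 4 rats per group with 1 array each. For control 1 and control 2, whose arrays were nearly identical, this is unsettled. The comparison asks which transcripts of DNA replication differed in such livers when the structured lipids were given.

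Replication begins when the origin recognition complex, with Cdc6 and Cdt1, loads the MCM ring onto DNA, and geminin blocks Cdt1 so that each origin is used only once per cycle. Cdc7 kinase, Cdc45, Mcm10 and the GINS complex then turn the ring into a running helicase, DNA polymerases copy the opened strands with the clamp PCNA, and ribonucleotide reductase, thymidylate synthase and thymidine kinase provide the building blocks. Most hepatocytes of an adult liver are out of the cell cycle, and E2F factors switch these genes on when cells enter S phase, as in liver that regenerates or grows nodules.

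Because E2F factors bind many of these genes, the promoters of the members were searched for E2F-type letters. RefSeq promoter windows on the GRCr8 build, 250 bases before and 50 after the annotated start, were matched for 35 of the 42 genes. The 8-base strings TTTCCCGC and TTTGGCGC were searched on both strands, and 13 of the 35 members held at least 1 of them (37.1%), against 420 of 27457 windows of all genes (1.53%). TTTCCCGC was in 5 members (14.3%, against 1.03% of all windows) and TTTGGCGC in 9 (25.7%, against 0.521%). The cell cycle element TTTGAA was in 4 (11.4%, against 18.1%) and the CCAAT box in 21 (60%, against 37.7%), so the E2F-type strings and CCAAT were more common in the members' windows than in all windows and TTTGAA was not. A match describes letters in a window and is no evidence of binding in these livers. A match before the start was in 7 members, and 4 of these, picked with their values known, are printed to show the variety of matches: Mcm5 with both strings, Mcm6, the helicase subunit described by array, Gins1 with an overlapping pair, and Tyms for nucleotide supply. The windows are the 250 bases before the start of Mcm5 (chr19:13488563-13488812, plus strand), Mcm6 (chr13:42404353-42404602, minus strand), Gins1 (chr3:160184670-160184919, plus strand) and Tyms (chr9:120776084-120776333, minus strand), each read 5′ to 3′ towards the gene, with the matches in capitals.
Mcm5: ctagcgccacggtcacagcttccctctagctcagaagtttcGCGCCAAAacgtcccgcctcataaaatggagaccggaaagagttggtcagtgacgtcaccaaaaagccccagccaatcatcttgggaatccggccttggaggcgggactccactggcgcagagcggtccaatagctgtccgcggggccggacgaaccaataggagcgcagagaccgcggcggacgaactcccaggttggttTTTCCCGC
Mcm6: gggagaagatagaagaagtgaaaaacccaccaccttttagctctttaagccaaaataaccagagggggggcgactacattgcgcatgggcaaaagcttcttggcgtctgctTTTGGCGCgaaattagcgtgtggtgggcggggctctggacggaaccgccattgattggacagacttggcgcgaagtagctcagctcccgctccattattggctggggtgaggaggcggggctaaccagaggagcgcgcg
Gins1: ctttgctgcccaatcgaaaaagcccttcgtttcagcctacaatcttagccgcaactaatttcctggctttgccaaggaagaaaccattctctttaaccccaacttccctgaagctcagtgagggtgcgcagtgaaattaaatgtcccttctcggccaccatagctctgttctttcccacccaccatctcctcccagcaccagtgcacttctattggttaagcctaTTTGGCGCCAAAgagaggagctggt
Tyms: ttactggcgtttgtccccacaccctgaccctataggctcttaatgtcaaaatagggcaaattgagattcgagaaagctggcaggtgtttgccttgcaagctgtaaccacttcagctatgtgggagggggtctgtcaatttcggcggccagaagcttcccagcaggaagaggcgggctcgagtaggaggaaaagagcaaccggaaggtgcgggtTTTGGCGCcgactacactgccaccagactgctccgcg

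Counted from the start, the match of Mcm6 covers the bases from -139 to -132 and that of Tyms those from -37 to -30. Mcm5 holds TTTGGCGC on the opposite strand from -209 to -202 and TTTCCCGC from -8 to -1. The capitals of Gins1 are TTTGGCGC read on both strands, from -25 to -18 and from -21 to -14, which overlap. The other members with a match were Mcm3, Mcm7, Gins3, Gmnn, Cdt1, Pola1, Pole, Pole2 and Rfc3.

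Signals are given on a log2 scale relative to the array's own 75th percentile, so 0 is a signal at that percentile. That percentile lay between 304 (STL 7) and 605 (control 4) on the scanner's scale, 54.2% to 62.8% of an array's probes were well above background, and precision is limited by how few arrays there are. The arrays of control 1 and control 2 stood apart as a near-identical pair. The spread of their log2 differences over repeated probes was 1.21 times that of repeated spots inside 1 array, against 2.499 to 7.26 times in the other pairs. Spread here is an SD estimated from the median absolute deviation, and the value inside 1 array is the median over the arrays. Control 1 and control 2 were therefore counted as 1 sample. That leaves 3 control against 4 STL samples, although the labels count 4 rats per group. If the pair holds RNA of 1 liver, which was not tested, p-values that count both as rats would be too small. Over the whole array 1 of 21700 genes (0.00461%) passed an adjusted p of 0.05 by limma with Benjamini-Hochberg adjustment, and it was Cish, a cytokine signalling gene outside the replication genes. Arrays of whole liver cannot tell fewer cells of a type from less RNA per cell.

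As a list the replication genes were lower in the STL livers, while no member passed the threshold by itself. The list was chosen with earlier results of these data known, so the counts that follow describe it and are no test. Of the 37 members tested, 33 had a log2 difference, STL minus control, below 0, where 41.9% of all genes tested did. The median of the members was -0.42, with a range from -2.04 to 1.33, against a median of 0.065 over all genes. By limma 0 of 37 had an adjusted p under 0.05, and the smallest was 0.166. At an unadjusted p under 0.05, 16 members were lower (7.41% of all genes were) and 1 was higher (11.6% of all genes were), the latter being Mcm10. In 2 of 37 members, Pcna and Rpa2, every STL liver lay below every control sample, no more than the share over all genes (5.63%). Array by array both overlapped, with STL 7 above control 1 in Pcna and STL 6 above control 2 in Rpa2. In Mcm10 every STL liver lay above every control sample (11.3% of all genes).

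The 5 members that could not be tested were well above background on fewer than 4 arrays. Orc1, the largest origin recognition subunit, and the polymerase subunits Pola2 and Pole2 were not well above background on any array. The licensing factor Cdt1 was so on 3 arrays, control 1, control 3 and STL 6, and E2f8 on 1, control 4. Of the 37 tested, 32 were well above background on all 8 arrays. The others were Cdc6 and Cdc7 on 7, Mcm6 on 6, Gins2 on 5 and Pola1 on 4 arrays, with fewer such arrays in the STL group in each, so their entry into the test was not independent of the group.

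A pair of the control arrays stood apart from the other samples. They were control 3 and control 4, which were above every other sample in 27 of the 37 members (73.0%), as in 2178 of all 21700 genes (10.04%), and below every other sample only in Mcm10. The averaged control 1 and 2 lay within the range of the STL livers in 29 members (78.4%, against 59.2% of all genes), above it in 2 and below it in 6. Centred on each gene's mean over the 7 samples, the median member was at 0.60 in control 3 and 0.35 in control 4. It was at -0.21 in the averaged control 1 and 2, and at -0.29, -0.077, -0.27 and -0.12 in STL 5, 6, 7 and 8. Control 3 was the highest sample in 27 members and control 4 in 5, while STL 5 was the lowest in 15 and STL 7 in 10. Control 1 and control 2 were apart by a median of 0.060 over the members and by at most 0.46.

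**Figure D1:**
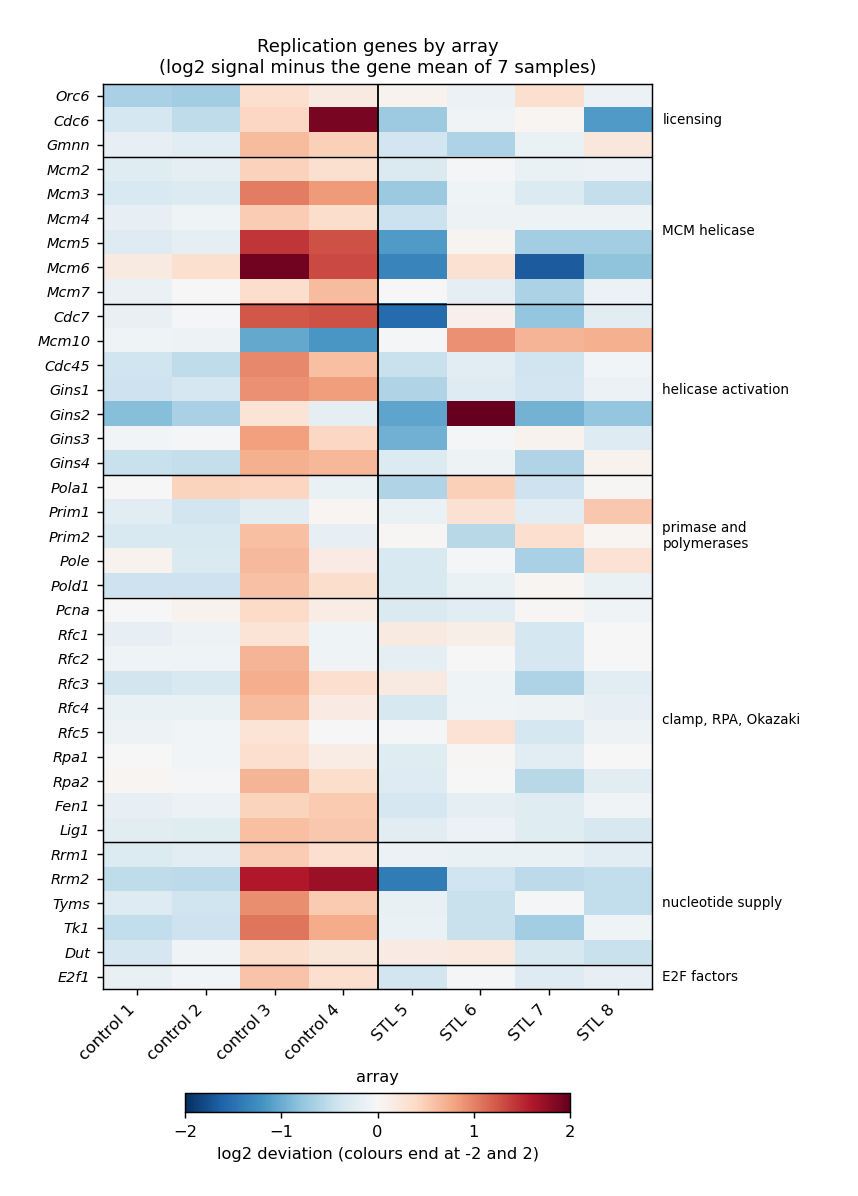
Each line is 1 of the 37 members tested, ordered by role, and each column 1 of the 8 arrays. Colour gives the log2 signal minus the gene's mean over the 7 samples, from -2 (blue) to 2 (red), and values beyond take the end colour. Control 3 and control 4 are red in most lines, control 1 and control 2 are closer in colour to the STL arrays, and Mcm10 shows the opposite colours.

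Of the 5 licensing factors, 3 were tested and 2 were lower (41.9% of all genes were), with a median of -0.53. An unadjusted p under 0.05 was reached by 0 of them (7.41% of all genes were lower at that p). Centred on each gene's mean, the median of these 3 was 0.41 in control 3 and 0.48 in control 4. It was -0.43 in the averaged control 1 and 2 and between -0.39 and 0.047 in the STL livers. Cdc6, which brings the MCM ring to the origin (probe at chr10:87696993-87697052, rn4), read -4.30 and -4.45 on control 1 and control 2, -3.54 and -2.05 on control 3 and control 4, and -4.67, -4.01, -3.90 and -5.08 on STL 5, 6, 7 and 8. Control 4 stood highest and control 3 next, while control 1 and control 2 lay within the STL range. The difference was -1.09 (SE 0.54; limma adjusted p = 0.300), with 3 of 4 STL arrays well above background. It was -0.46 without control 4 and -0.25 with normexp background correction.

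Gmnn encodes geminin, the inhibitor of Cdt1 (probe at chr17:47380221-47380280), and read -1.71 and -1.78 on control 1 and control 2, -0.92 and -1.07 on control 3 and control 4, and -1.94, -2.16, -1.69 and -1.32 on STL 5, 6, 7 and 8. Highest were control 3 and control 4, with STL 8 next to them, and the averaged control 1 and 2 lay among the STL livers. Its difference was -0.53 (SE 0.26; limma adjusted p = 0.298), or -0.32 with normexp. Orc6, a subunit of the origin recognition complex, differed by 0.093 (95% interval -0.56 to 0.74), which left its direction unsettled.

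At the probe used for each, all 6 subunits of the MCM helicase, the ring that unwinds the origin, were lower in the STL livers. Over all genes tested 41.9% were lower. An unadjusted p under 0.05 was reached by 5 of the 6, all except Mcm2, where 7.41% of all genes were lower at that p. Over the 6 the median log2 difference was -0.73. None passed the threshold over all genes. For Mcm6 (probe at chr13:41052148-41052207) the arrays read -3.27 and -3.13 on control 1 and control 2, -1.52 and -2.12 on control 3 and control 4, and -4.77, -3.14, -5.12 and -4.24 on STL 5, 6, 7 and 8. Control 3 and control 4 were highest, STL 5 and STL 7 lowest, and STL 6 overlapped with control 1 and control 2. The means were -2.28 ± 0.85 (SD, n = 3) in control and -4.32 ± 0.86 (SD, n = 4) in STL. STL minus control was -2.04 (SE 0.53, 95% interval -3.24 to -0.84), with a limma adjusted p of 0.172. Its 1 probe was well above background on 2 of 4 STL arrays, and with normexp background correction the difference was -0.64, smaller in size than that of Mcm5 or Rrm2 (-1.05 and -1.59).

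Mcm5 (probe at chr19:14000967-14001026), whose promoter holds both E2F-type strings, was well above background on all arrays. It read -1.51 and -1.45 on control 1 and control 2, 0.17 and 0.013 on control 3 and control 4, and -2.39, -1.21, -1.96 and -1.96 on STL 5, 6, 7 and 8. Again control 3 and control 4 stood above the rest and STL 6 was above both arrays of the near-identical control pair. Its means were -0.43 ± 0.91 (SD, n = 3) in control and -1.88 ± 0.49 (SD, n = 4) in STL, which differ by -1.45 (SE 0.42), 2.73-fold lower (limma adjusted p = 0.179). The other Mcm5 probe differed by -1.34.

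Mcm2, the subunit often used as a marker of cells licensed to divide (probe at chr4:122977553-122977612), differed less. The arrays read 1.15 and 1.21 on control 1 and control 2, 1.85 and 1.71 on control 3 and control 4, and 1.09, 1.35, 1.26 and 1.27 on STL 5, 6, 7 and 8. Only control 3 and control 4 were above the STL range, and the difference was -0.34 (SE 0.17; limma adjusted p = 0.300), with -0.31 at its other probe and -0.20 without control 3. Mcm3, Mcm4 and Mcm7, the remaining ring subunits, differed by -0.92, -0.42 and -0.54 (limma adjusted p = 0.195, 0.239 and 0.214). Another Mcm3 probe went the other way, at 0.26. The files place both Mcm3 probes on X_random of rn4, while RefSeq has Mcm3 on chromosome 9. It is unsettled whether these probes measure Mcm3.

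Most factors that activate the helicase were lower. Of 7, 5 were lower (41.9% of all genes were), and the median was -0.65. An unadjusted p under 0.05 was reached by 3 of them, Cdc7, Gins1 and Gins3 (7.41% of all genes were lower at that p). Mcm10 and Gins2 were higher, Gins2 through STL 6 alone. Cdc7, the kinase that phosphorylates the MCM ring (probe at chr14:3421680-3421739), read -3.67 and -3.56 on control 1 and control 2, -2.27 and -2.24 on control 3 and control 4, and -5.06, -3.41, -4.29 and -3.74 on STL 5, 6, 7 and 8. STL 5 was far below all others, and STL 6 lay above control 1 and control 2. The difference was -1.42 (SE 0.47, 95% interval -2.48 to -0.35), with 3 of 4 STL arrays well above background (limma adjusted p = 0.194). It was -0.45 with normexp background correction.

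Mcm10, which links the helicase to polymerase alpha, went the other way (probe at chr17:84375391-84375450). It read -0.93 and -0.94 on control 1 and control 2, -1.86 and -2.01 on control 3 and control 4, and -0.86, 0.075, -0.17 and -0.13 on STL 5, 6, 7 and 8. The STL livers were all above the control samples, though STL 5 exceeded control 1 and control 2 by little, and control 3 and control 4, highest in most members, were lowest here. Means were -1.60 ± 0.58 (SD, n = 3) in control and -0.27 ± 0.41 (SD, n = 4) in STL. They differ by 1.33 (SE 0.30, 95% interval 0.64 to 2.02), which is 2.51-fold (limma adjusted p = 0.166, the smallest among the members). It has a single probe, well above background on all 8 arrays. Its promoter window held neither E2F-type string, as in all but 13 of the 35 members matched. Whether such strings have a part in the direction of a member was not tested.

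The remaining activators are the helicase subunit Cdc45 and the GINS complex, which rides with it. Cdc45 differed by -0.65, Gins1 by -0.81, Gins3 by -0.69 and Gins4 by -0.53 (limma adjusted p = 0.280, 0.223, 0.249 and 0.352). Gins2 differed by 0.40 (95% interval -1.92 to 2.72), but this rests on STL 6 alone, at 0.024 against -4.49 to -4.21 on the other STL arrays. Without STL 6 its difference was -0.70.

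Primase and polymerase genes differed little. Of 7, 5 were tested, 4 were lower, 0 had an unadjusted p under 0.05, and the median was -0.30. Prim1, the catalytic primase subunit that lays the RNA primers (probe at chr7:1321717-1321776), read 0.68 and 0.55 on control 1 and control 2, 0.69 and 0.96 on control 3 and control 4, and 0.78, 1.22, 0.70 and 1.45 on STL 5, 6, 7 and 8. STL 6 and STL 8 were highest, STL 5 and STL 7 lay among the controls, and the difference was 0.28 (SE 0.20; limma adjusted p = 0.442). Pole, the catalytic subunit of the leading strand polymerase epsilon (probe at chr12:46494396-46494586), read -2.74 and -3.10 on control 1 and control 2, -2.15 and -2.65 on control 3 and control 4, and -3.11, -2.83, -3.46 and -2.52 on STL 5, 6, 7 and 8. Its difference was -0.41 (SE 0.28; limma adjusted p = 0.428), or -0.086 with normexp and -0.20 without control 3, and STL 8 lay above control 4. Pola1, Prim2 and Pold1, of polymerase alpha, primase and the lagging strand polymerase delta, differed by -0.30, -0.084 and -0.31. The direction of Pola1 and Prim2 changed with the processing.

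Every one of the 10 members at the clamp, its loader, the single-strand binding protein and Okazaki fragments was lower, by a median of -0.35, although Rfc1, near 0, changed sign with 8 samples and in the authors' series table. Of the 10, 4 had an unadjusted p under 0.05, where 41.9% of all genes tested were lower and 7.41% were lower at that p. The 4 members were Pcna, Rpa2, Fen1 and Lig1. Rpa2, a subunit of the protein that coats single-stranded DNA (probe at chr5:152369934-152369993), read 0.17 and 0.11 on control 1 and control 2, 0.81 and 0.48 on control 3 and control 4, and -0.13, 0.12, -0.42 and -0.074 on STL 5, 6, 7 and 8. By the files' coordinates this Rpa2 probe lies on the minus strand of rn4, while RefSeq has Rpa2 on the plus strand of GRCr8. The reason for this was not tested. Every STL liver lay below the averaged control 1 and 2, but array by array STL 6 was just above control 2. The means were 0.48 ± 0.34 (SD, n = 3) in control and -0.13 ± 0.22 (SD, n = 4) in STL, apart by -0.60 (SE 0.19, 95% interval -1.03 to -0.18), 1.52-fold lower (limma adjusted p = 0.183).

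Pcna, the sliding clamp and a common marker of S phase (probe at chr3:120008997-120009056), read 1.08 and 1.14 on control 1 and control 2, 1.46 and 1.23 on control 3 and control 4, and 0.79, 0.87, 1.096 and 1.008 on STL 5, 6, 7 and 8. STL 7 came close to control 1, and control 3 stood highest. Its means of 1.26 ± 0.18 (SD, n = 3) in control and 0.94 ± 0.14 (SD, n = 4) in STL differed by -0.32 (SE 0.13), 1.25-fold lower (limma adjusted p = 0.235). The groups of Pcna did not overlap when the control pair was averaged, while array by array control 1 was just below STL 7. Fen1, the nuclease that trims Okazaki fragments (probe at chr1:212688202-212688261), read 2.01 and 2.06 on control 1 and control 2, 2.63 and 2.70 on control 3 and control 4, and 1.85, 1.998, 1.94 and 2.12 on STL 5, 6, 7 and 8. Control 1 and control 2 lay within the STL range, and the difference was -0.48 (SE 0.17; limma adjusted p = 0.205).

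Lig1, the ligase that joins Okazaki fragments, differed by -0.53 (limma adjusted p = 0.213). The clamp loader subunits Rfc1 to Rfc5 differed by -0.03, -0.30, -0.42, -0.38 and -0.12, and the single-strand binding subunit Rpa1 by -0.27, with limma adjusted p from 0.294 to 0.933. Each of these 6 intervals reached 0. The Rfc3 probe, like that of Rpa2, lies on the minus strand of rn4, while RefSeq has the gene on the plus strand of GRCr8.

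Genes of nucleotide supply were lower in 5 of 5 (41.9% of all genes were), and the median was -0.66. Of these, 3 had an unadjusted p under 0.05 (7.41% of all genes were lower at that p). Rrm2, the regulated subunit of ribonucleotide reductase, which makes deoxynucleotides (probe at chr6:42359210-42359269), read 0.89 and 0.87 on control 1 and control 2, 3.00 and 3.11 on control 3 and control 4, and 0.0014, 0.99, 0.88 and 0.90 on STL 5, 6, 7 and 8. Both control 3 and control 4 were far above all others, control 1 and control 2 lay at the level of STL 6, 7 and 8, and STL 5 was lowest. The means were 2.33 ± 1.26 (SD, n = 3) in control and 0.69 ± 0.46 (SD, n = 4) in STL, with STL minus control at -1.64 (SE 0.51, 95% interval -2.81 to -0.47), 3.11-fold lower (limma adjusted p = 0.186). The other Rrm2 probe differed by -2.03.

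Tk1, the thymidine kinase of S phase, read 0.16 and 0.24 on control 1 and control 2, 1.74 and 1.40 on control 3 and control 4, and 0.52, 0.22, -0.035 and 0.57 on STL 5, 6, 7 and 8. Only control 3 and control 4 stood out, and STL 5 and STL 8 were above control 1 and control 2. Its means were 1.11 ± 0.81 (SD, n = 3) in control and 0.32 ± 0.28 (SD, n = 4) in STL, differing by -0.79 (SE 0.34; limma adjusted p = 0.251), and by -0.48 without control 3. The files give this probe no position, and another probe that they name Tk1, at -0.70, they place on rn4 chromosome 3. RefSeq has Tk1 on chromosome 10, so it is unsettled whether that probe measures Tk1. Tyms, which makes thymidylate and whose promoter is printed above, differed by -0.66 (limma adjusted p = 0.257), the dUTPase gene Dut by -0.23, and Rrm1, the large reductase subunit, by -0.35. Rrm1, like Rrm2, was highest in control 3 and control 4.

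E2f1, the activator that drives S phase genes (probe at chr3:145032731-145032790), read -1.48 and -1.40 on control 1 and control 2, -0.77 and -0.99 on control 3 and control 4, and -1.70, -1.36, -1.60 and -1.50 on STL 5, 6, 7 and 8. The highest arrays were control 3 and control 4, and control 1 and control 2 lay inside the STL range. The means of -1.07 ± 0.34 (SD, n = 3) in control and -1.54 ± 0.14 (SD, n = 4) in STL gave a difference of -0.48 (SE 0.18), 1.39-fold lower (limma adjusted p = 0.227). E2f8, a repressor of the same targets (probe at chr1:98641689-98641748), read -5.42 and -6.06 on control 1 and control 2, -4.95 and -3.10 on control 3 and control 4, and -5.43, -6.32, -6.33 and -5.56 on STL 5, 6, 7 and 8. Only control 4 was well above background, so the gene was not tested and no fold is given.

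**Figure D2:**
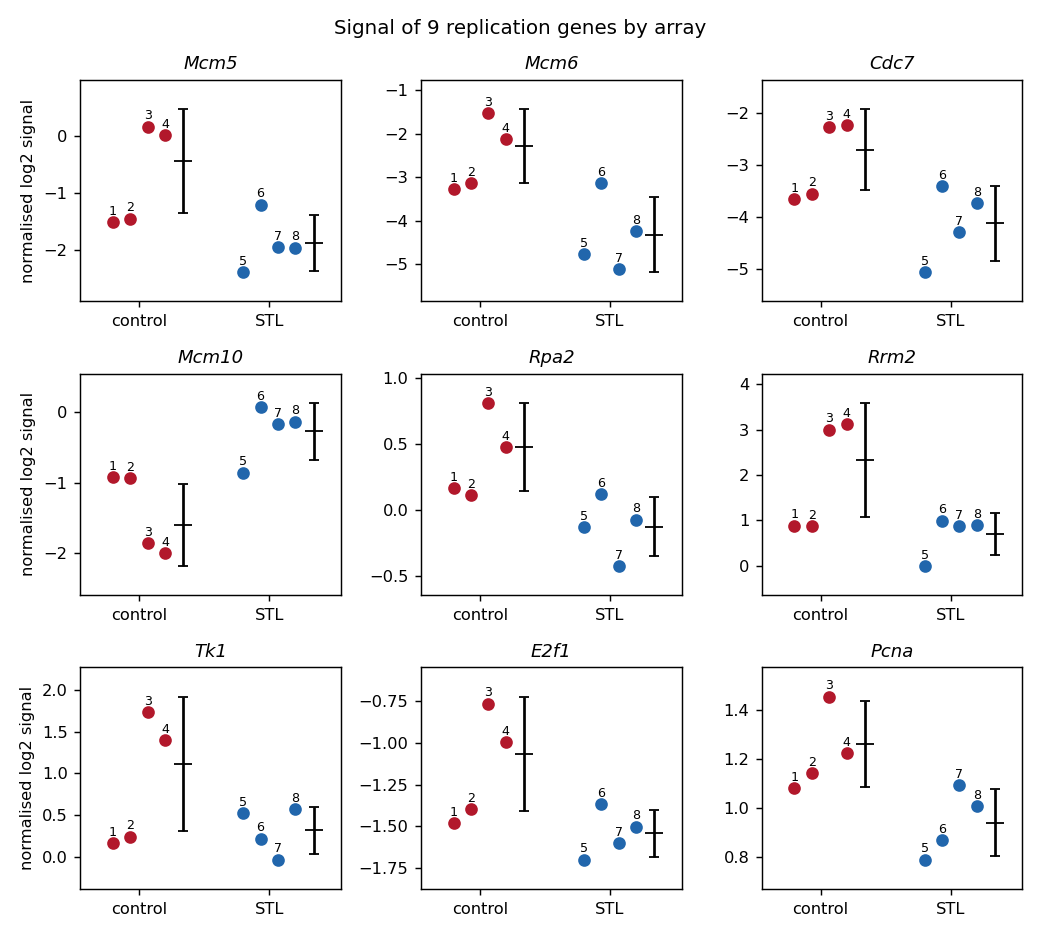
Normalised log2 signal of 9 members, with 1 point per array numbered as in the labels, control in red and STL in blue. The bar beside each group is the mean and SD, with control 1 and control 2 averaged first (n = 3 control, n = 4 STL). Control 3 and control 4 lie apart from control 1 and control 2 in most panels, above them in Mcm5, Rrm2 and Tk1 and below them in Mcm10.

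**Figure D3:**
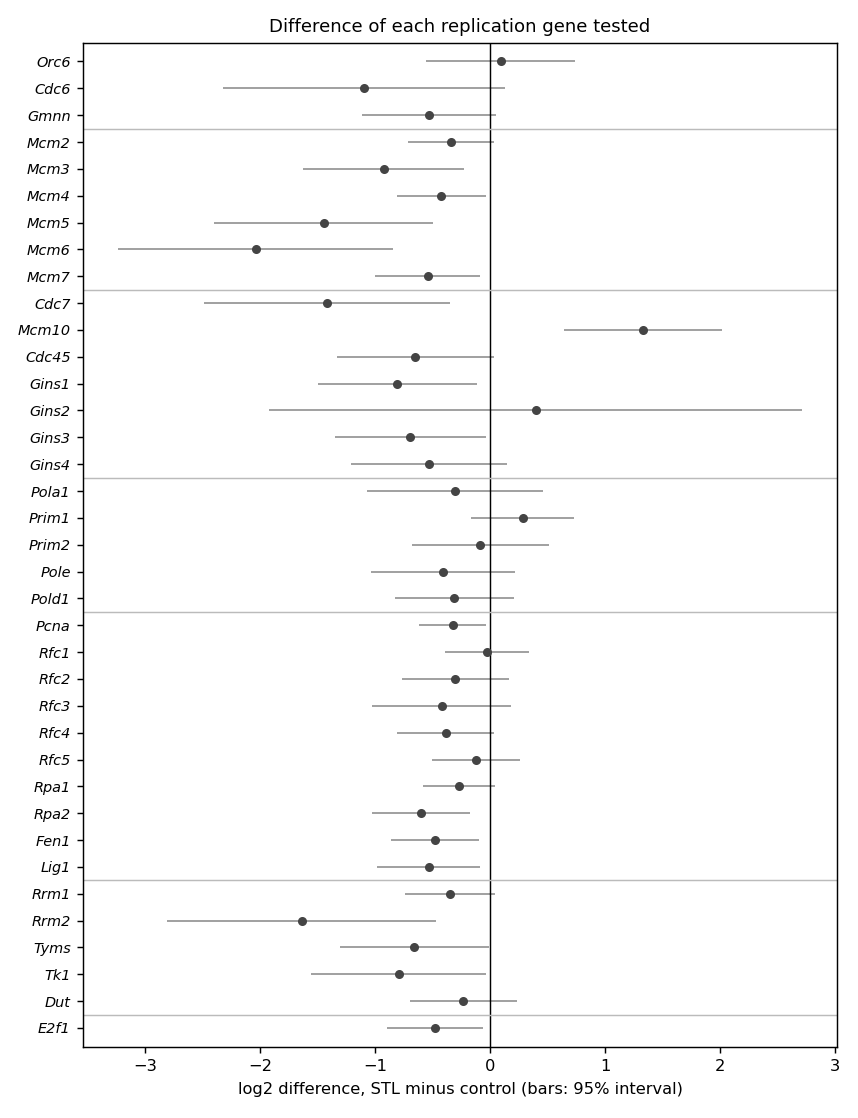
Log2 difference, STL minus control, of each of the 37 members tested, with the 95% interval of the limma fit, ordered by role. Of these, 33 points lie below 0, from -2.04 (Mcm6) upwards, and Mcm10 at 1.33 lies on the other side.

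Where a gene had several probes, they mostly had the same direction. Of 13 members with more than 1 probe, 10 had several that could be used, and in 9 of these the differences had the same sign. These 9 include Tk1, whose other probe may measure another transcript. Mcm3 was the exception, with -0.92 at the probe used and 0.26 at the other, and -0.33 for their mean. The probe of Mcm4 that stands for the gene and another one overlap in sequence position, so their likeness (-0.42 and -0.40) is no independent measurement.

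How far the members differed depended on which control arrays were in the comparison. With control 1 and control 2 both left out, which leaves 2 control samples, 34 of 37 members were lower, by a median of -0.66, and 8 members passed the threshold (limma with Benjamini-Hochberg adjustment), where 214 of all genes (0.986%) did. These were Mcm3, Mcm5, Mcm10, Cdc45, Gins1, Lig1, Rrm2 and Tk1. The difference of Rrm2 was then -2.36 (adjusted p = 0.0130), that of Mcm5 -1.97 (0.0326), that of Tk1 -1.25 (0.0408) and that of Mcm10 1.66 (0.0331). With array weights, which let limma give less weight to arrays that fit less well, 8 members passed too, where 1593 of all genes (7.34%) did, namely Mcm3, Mcm5, Mcm6, Mcm10, Rpa2, Lig1, Rrm2 and Tyms. In the other direction, without control 3 the median was -0.29, 31 members were lower and 4 of 37 had an unadjusted p under 0.05, against 13% of all genes. Without control 4 the median was -0.41, with 33 lower and 6 of 37 at that p (13.3% of all genes), and without STL 5 it was -0.42, with 33 lower and 10 (14.4%). Without control 3 the difference was -0.35 for Cdc45, -0.33 for Gins4, -0.38 for Tyms, -0.19 for Rrm1 and -0.10 for Pold1, and for Rfc2, Rfc3 and Rfc4 it was -0.048, -0.18 and -0.18. With normexp Gins1, Gins3 and Tyms were at -0.53, -0.37 and -0.42.

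Other genes of the same pathway, taken from lists of known components that were set with earlier results of these data known, were lower in part. Of 64 such genes, 61 were on the array and 52 were tested, with 36 lower and 16 higher (41.9% of all genes tested were lower). Their median was -0.12, and 0 passed the threshold by limma. At an unadjusted p under 0.05 by limma, 8 were lower (7.41% of all genes were) and 4 higher (11.6% of all genes were). Of 9 further licensing and origin factors 8 were lower, by a median of -0.076, and the 2 with the smallest p were Orc2, at 0.26, and Mcmbp, an MCM binding protein, at -0.29 (limma adjusted p = 0.243 and 0.289). Of 13 further replisome subunits 9 were lower, by a median of -0.13, led by Chtf18 and Dscc1 of the alternative clamp loader, at -0.72 and -0.64 (adjusted p = 0.252 and 0.323).

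Chromatin assembly genes that work at the fork had 3 of 7 tested, with Atad2 at -1.22, well above background on 1 of 4 STL arrays, and the CAF-1 subunit gene Chaf1b at -1.19 (limma adjusted p = 0.206 and 0.207). Among 13 further genes of nucleotide supply 9 were lower. Ctps1, which makes CTP, was at -0.75, while Shmt1, which feeds one-carbon units to thymidylate, was at 0.53 (adjusted p = 0.164 and 0.172). Of 14 E2F and RB regulators 8 were lower, and the S phase cyclin genes Ccna2 and Ccne2 were at -1.98 and -1.24 (adjusted p = 0.179 and 0.171).

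Markers of dividing cells moved with the replication genes. All 8 of this list were lower in the STL livers (41.9% of all genes were), by a median of -1.28. By limma 7 were lower at an unadjusted p under 0.05 (7.41% of all genes were), with none past the threshold. Their median centred signal was 1.46 in control 3 and 1.54 in control 4, while the averaged control 1 and 2 stood at -0.51 and the STL livers between -0.84 and -0.34, so it set apart the same pair of arrays. Summed over the list, the level relative to each array's 75th percentile was 17.2 to 24.3 in the control samples and 12.5 to 16.9 in the STL livers. Most of that sum in the averaged control 1 and 2 was Aurkb, a mitotic kinase gene with a difference of -0.13. Leaving it out put control 3 at 12.09, control 4 at 12.1 and the averaged pair at 2.72, the last within the STL range of 2.21 to 3.25. Mki67, Top2a and Cdk1 are in that list, and their part in the members' difference was not tested.

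Lists of other cells of the liver had differences as well, with no marker past the threshold. Of all genes tested 41.9% were lower. Of the cholangiocyte and progenitor markers 7 of 8 were lower, by a median of -1.05, with summed levels of 5.32 to 12.3 in the control samples and 2.47 to 6.19 in STL. Of the stellate cell and fibroblast markers 7 of 8 were lower, by -0.54, with sums of 46.6 to 95.4 and 29.1 to 43.8. Both lists were highest in control 4, while the replication genes were highest in control 3. Hepatocyte markers, the check of the labelled tissue, were the brightest list, with sums of 2412 to 3491 in control and 3354 to 4994 in STL, and 8 of 9 were higher, by a median of 0.30. Macrophage markers (6 of 8 lower, median -0.099), endothelial markers (2 of 6 lower, 0.16), lymphocyte markers (2 of 8 lower, 0.14) and granulocyte and mast cell markers (4 of 5 lower, -0.66) differed in both directions, and Cd3e, Ms4a1 and Mpo were not well above background on any array. The part of these cell types in the members' values was not tested.

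**Figure D4:**
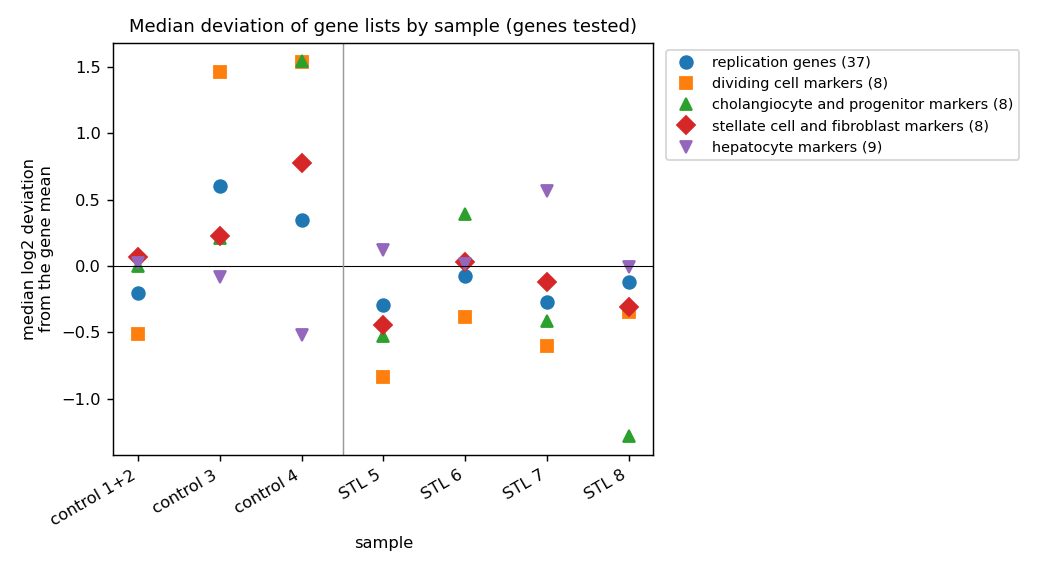
Median over each list of the log2 signal minus the gene's mean, by sample, for the 37 replication genes and 4 marker lists, with control 1 and control 2 averaged. Replication genes and dividing cell markers are above 0 in control 3 and control 4 and below 0 in the other 5 samples, whereas cholangiocyte markers are highest in control 4 and hepatocyte markers lowest there.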

How the data were processed

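Rat liver RNA was measured on 8 Agilent arrays with 1 colour (Cy3), per the labels' protocols. Spot intensity was read from the deposited scanner files, made by the authors with Agilent Feature Extraction (version 11.5.1.1 per the file headers, 10.7 per the submitters' processing notes), with probe positions on rn4. The 8 arrays were on 1 slide with 1 scan time. Each column of the authors' series table is the intensity of 1 array on a linear scale, scaled and not centred, with column medians of 57.7 to 65.3. In 6 of 8 columns the label names a different array of that group, in 0 one of the other group, which leaves the identity of rats inside a group unsettled.

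Non-control spots of a probe were averaged, outlier spots left out, and log2 signals taken relative to each array's 75th percentile. Members were matched by the gene name in the files, and for 53 of their 58 probes the RefSeq accession gives the same symbol. A gene was represented by its brightest probe and tested if at least 4 arrays were well above background (at least 0.5 of the probe's spots). Arrays whose differences over 2046 repeated probes stayed under 1.5 times the noise within an array were averaged, which applied to control 1 and control 2. The test was limma 3.58.1 under R 4.3.3 (lmFit, then eBayes with intensity trend, two-sided, Benjamini-Hochberg over all 21700 genes, threshold 0.05), after a test on simulated data. Python 3.11.15, pandas 2.3.3 and matplotlib 3.10.9 did the rest, and 21 alternatives were run.

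The members and lists were chosen with earlier results of these data known, so no list was tested. Given by array were, in each role group, the 2 members with the smallest unadjusted p, plus Pcna, Mcm2, Rrm2, Tk1, E2f1 and E2f8, and of the other lists the 2 genes with the smallest unadjusted p. Fits with 8 samples and with slide column or slide row as a block are in the closing section. Probe and protein sequences were not used here.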

Additional observations from a re-analysis of the deposited data

Results flagged for a closer look

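In groups of 4 samples, a sample was singled out where its gap to the nearest other sample was, as a share of the group's range, above Dixon's 95% critical value. Of 42 members examined in the STL group 3 had such a sample, and chance gives about 1 in 20. Mcm4, a helicase subunit, was lowest in STL 5, at 0.26, while the other STL livers lay between 0.58 and 0.59 (0.981 of the range). Rrm2, the reductase subunit, was also lowest in STL 5, at 0.0014 against 0.88 to 0.99 in the others (0.880 of the range). Without STL 5 the difference of Mcm4 was -0.34 and that of Rrm2 -1.41. Gins2, of the GINS complex, was highest in STL 6, at 0.024, while the others lay between -4.49 and -4.21 (0.938 of the range). STL 6 was the only STL array on which Gins2 was well above background. Its probe has 1 spot per array, and the other Gins2 probe was at background on all arrays.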

How the results depend on the processing

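Under 21 alternatives the members lower in STL numbered 29 to 37 (of 32 to 42 tested) and their median log2 difference stayed between -0.66 and -0.29. Members past the threshold were 0 except with array weights (8) and with control 1 and 2 both left out (8), and stayed 0 when any 1 array was left out. Members with an unadjusted p under 0.05, 17 as reported, were 9 with each of the 8 arrays as a sample, 6 with slide row as a block, 12 with slide column as a block, 30 with array weights, 27 with control 1 and 2 left out, and 4 (without control 3) to 18 (without control 2) when 1 array was left out. In most of these fits the share of all genes at that p was not counted. Such counts therefore do not set the members apart from other genes. Genes past the threshold in the whole table, 1 as reported, were 21 with 8 samples and 2 with slide row as a block. They were 1593 with array weights and 214 with control 1 and 2 left out. When 1 array was left out they were 1 to 46 (without STL 6), with 3 without control 3. Of 772 values of single members, 739 kept direction and side of the threshold, 16 passed it and 17 changed sign, in 5 of 37 members. Orc6 was at -0.17 with array weights, -0.22 with control 1 and 2 left out and -0.0016 to 0.29 with 1 array left out. Gins2 was at -0.027 with array weights and -0.70 to 0.80 with 1 left out, and Pola1 at 0.21 with normexp. Prim2 was at 0.0037 with 8 samples, with or without a slide block, and -0.21 to 0.19 with 1 left out. Rfc1 was at 0.0082 there, 0.0064 in the authors' series table and -0.10 to 0.10 with 1 left out. The cause of these shifts was not tested. Replicate numbers pair no rats, since the labels number control 1 to 4 and STL 5 to 8, and the slide column, which holds 1 array of each group, was the paired fit. Signal over background limits Gins2, Mcm6, Pola1, Cdc6 and Cdc7, and the 5 members not tested have no value beyond that limit.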
